A study of Schizosaccharomyces pombe with 56 samples.

Results

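Genome-wide ChIP-seq for dimethylated lysine 9 of histone H3 (H3K9me2) in fission yeast (Schizosaccharomyces pombe) gave 242 regions whose level was lower after 24 h of quiescence than before it, out of 2192 regions in the authors' table. They were chosen as the regions whose deposited mean at 24 h lay at least 0.1 on the log2 scale below that at 0 h, with regions wider than 10 kb left out. The regions were thus selected on the deposited means at 24 h and 0 h, so their levels and changes are given as a description, with no test. Both groups were wild type, the h+ strain 975, at 32C, immunoprecipitated with the antibody abcam 1220: the 24 h group had spent that time in the minimal medium EMM without nitrogen, and the 0 h group was taken from EMM before nitrogen was removed. The series holds 56 libraries, of which 24 are H3K9me2 immunoprecipitations, 6 are H3K9me3 immunoprecipitations and 26 are inputs. Wild type had 6 H3K9me2 libraries at 24 h and 6 at 0 h, and the table examined here names 5 replicate digits, 1, 3, 4, 5 and 6, of which 3 have an input listed. The 1 h samples, the strains deleted for clr4 or ago1 and the H3K9me3 libraries were not analysed here. Nothing in the labels says that replicates came from separate cultures.

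H3K9me2 is placed by the methyltransferase Clr4 and read by chromodomain proteins such as Swi6, Chp1 and Chp2. In growing fission yeast it covers centromeres, subtelomeres and the mating-type locus, where RNA interference and sequence-specific factors bring Clr4 to chromatin. Small islands of the mark also lie over meiotic genes, whose transcripts the RNA-binding protein Mmi1 recognises during growth and sends to degradation with the help of Red1. Quiescence is the resting state that cells of this species enter when nitrogen runs out and no mating partner is there. Levels below are the authors' group means in normalised reads per region, and changes are 24 h minus 0 h on the log2 scale, so a negative change is a lower level at 24 h.

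The sequences of the regions that stand out are shown first, all on the + strand of the genome assembly ASM294v3. The region with the largest decrease, chrII:2338887-2339918, holds no protein-coding gene, and the 300 bases around its centre, chrII:2339252-2339551, are shown with each GGTTA in capitals. GGTTAC is the core of the telomere repeat of this yeast, and the search for GGTTA was chosen after the sequence had been seen.
largest decrease: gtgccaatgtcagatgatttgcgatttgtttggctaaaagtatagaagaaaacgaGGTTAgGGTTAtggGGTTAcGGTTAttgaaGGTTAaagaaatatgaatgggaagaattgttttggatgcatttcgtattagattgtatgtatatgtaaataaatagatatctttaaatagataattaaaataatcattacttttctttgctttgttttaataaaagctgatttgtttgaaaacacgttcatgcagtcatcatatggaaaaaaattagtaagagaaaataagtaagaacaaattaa
The centre of the region in rec8, chrII:2569835-2570134, is shown because rec8 is a classical target of Mmi1, which binds the RNA motif UNAAAC. Capitals mark the only match to TNAAAC or its complement, which lies on the strand opposite to the gene, and all of the bases shown are coding.
rec8: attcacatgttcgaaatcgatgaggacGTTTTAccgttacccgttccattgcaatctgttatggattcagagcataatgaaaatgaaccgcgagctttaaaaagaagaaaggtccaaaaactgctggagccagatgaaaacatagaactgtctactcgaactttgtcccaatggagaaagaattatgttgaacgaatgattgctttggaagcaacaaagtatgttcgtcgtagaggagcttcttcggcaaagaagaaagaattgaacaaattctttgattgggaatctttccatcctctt
The gene SPBPJ4664.02, annotated as a glycoprotein, held 2 of the regions, and 108 bases of each are shown, at chrII:689145-689252 and chrII:694869-694976, with the most frequent 18-base run in capitals.
SPBPJ4664.02, first region: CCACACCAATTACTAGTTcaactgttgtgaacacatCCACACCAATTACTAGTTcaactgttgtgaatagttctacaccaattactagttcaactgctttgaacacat
SPBPJ4664.02, second region: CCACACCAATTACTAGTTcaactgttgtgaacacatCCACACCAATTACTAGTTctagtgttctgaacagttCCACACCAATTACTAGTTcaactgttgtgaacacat
The 18-base run occurred 66 times in the first region and 96 times in the second, and the sequence repeated with a period of 36 bases.

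The regions were short and their levels low. Their median width was 1387 bp, with a range of 259 to 7993 bp, and together they covered 404 kb, or 3.21% of the nuclear genome. The median level was 7.92 normalised reads at 24 h, against 15.3 at 0 h. Per kb of region the median was 5.85 normalised reads at 24 h and 11.0 at 0 h. The change in the deposited values had a median of -0.84 and ranged from -7.80 to -0.10. Its median was -0.30 with both groups scaled to the same total and -2.56 with the tested regions scaled to the same median. At 24 h 59 regions lay under 2.31 normalised reads, the level of 3 reads per library, so that their decreases are known only as bounds. With those levels set to 2.31, the median was -0.75, and a decrease of at least 0.5 was seen in 153 regions, of at least 1 in 89, of at least 2 in 19 and of at least 3 in 5. The regions held 2.47% of all normalised reads of the table at 24 h, against 4.35% at 0 h, and without the mating-type region described below 1.78% at 24 h, against 2.30% at 0 h. Most normalised reads lay in 12 wide regions, mainly at centromeres, chromosome ends and the mating-type locus, 9 of which were lower at 24 h too.

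**Figure D1:**
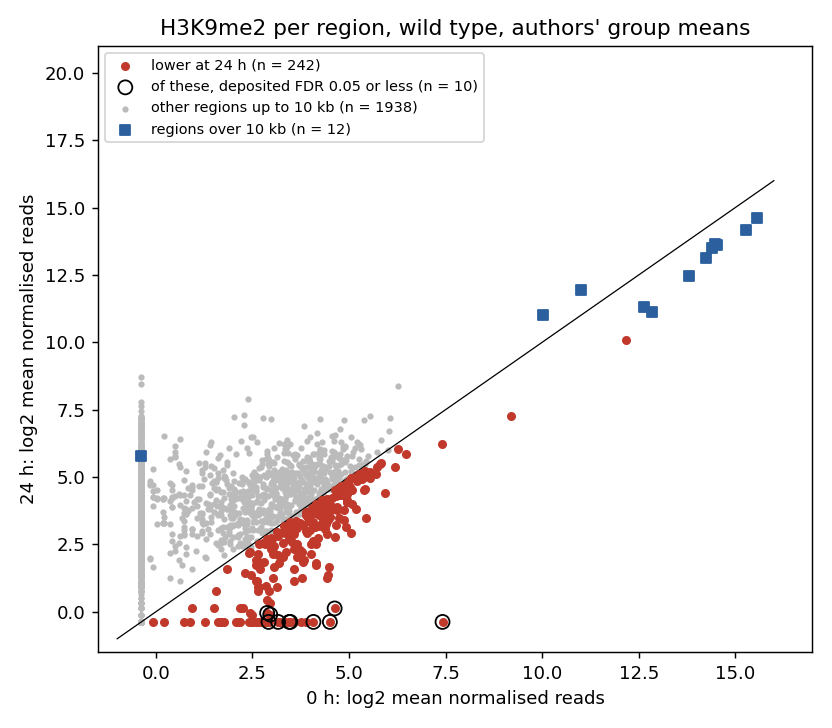
Level of each region at 24 h (vertical axis) against 0 h (horizontal axis), as log2 of the authors' group mean in normalised reads, with a line of equal levels. The 242 regions lower at 24 h lie below the line, 38 of them in a row at the lowest 24 h value, and the 10 with a deposited FDR of 0.05 or less are ringed.

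The authors' deposited table put 10 of the 242 regions at a false discovery rate (FDR) of 0.05 or less, where 0.722% of all 1385 regions with a p below 1 were called lower. Since the same contrast chose the regions, nothing is read from that share. Of the 242, 19 had in the authors' deposited table an unadjusted p under 0.05, and 55 are listed there with a p of 1. Nearest to the limit of 0.1, rqh1, which encodes a RecQ DNA helicase, had 31.1 normalised reads at 24 h and 33.4 at 0 h. Just outside it, exo70, an exocyst subunit, had 13.3 normalised reads at 24 h and 14.1 at 0 h.

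The group means could be split into whole reads per library, on the assumption of 5 libraries per group. Reads above the minimum of 1 were sought in 3 libraries at 24 h, called C, D and E here. At 0 h they were sought in 2, called A and B. A region was resolved only if the remaining libraries, 2 at 24 h and 3 at 0 h, could stand at 1 read each. Reads of the remaining libraries in unresolved regions are therefore not excluded. Which labelled replicate each letter stands for is not known. Of the 242 regions, 238 were resolved in both groups, and a library at 1 read below had no reads above the minimum that the deposited values allow. limma with Benjamini-Hochberg adjustment, fitted to the recovered values of all 2174 regions resolved in both groups, called 0 regions of the table lower at 24 h and 0 higher at 0.05, and without adjustment 0 lower and 61 higher. Neither these calls nor the deposited ones are a test of the 242 regions, which were selected on the same values. In the limma fit reads above 1 could stand in only 2 of 5 libraries at 0 h, against 3 of 5 at 24 h. The smallest unadjusted p of limma for a lower region was 0.147, so 0 lower against 61 higher is no comparison of directions. A level of 0.771 normalised reads at 24 h means 1 read in every library, and a fold against it was bounded with 3 reads per library, or 2.31 normalised reads.

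Of the 10 called regions, 3 lay over genes of the cohesion, checkpoint and segregation list. These were 3 of its 55 genes, against 10 of all 5113 coding genes under called regions. Over the 28 regions of that list the median change was 2.22, a higher level at 24 h. The list was chosen with earlier results of these data known, so nothing is read from the count. mph1 encodes the spindle checkpoint kinase related to Mps1. Its region, chrII:374479-375691 in the gene body, held 1 read in each of C, D and E at 24 h, against 90 reads in A and 57 in B at 0 h. The group mean was 0.771 normalised reads at 24 h and 22.7 at 0 h, a level at least 9.82-fold lower at 24 h, with an FDR of 0.00506 in the authors' deposited table. psm1 encodes the SMC1 subunit of cohesin, the ring that holds sister chromatids together. Its region held 3 reads in C and 1 each in D and E at 24 h, against 22 in A and 114 in B at 0 h. The group mean was 1.09 normalised reads at 24 h, under the 2.31 of 3 reads per library, and 24.8 at 0 h, with an FDR of 0.0101 in the authors' deposited table. rec8 encodes the meiotic kleisin subunit of cohesin. Its short region of 374 bp held 1 read in each 24 h library, against 18 in A and 33 in B at 0 h, and the FDR in the authors' deposited table was 0.0214. In all 3 genes A and B lay above every 24 h library, while the remaining 0 h libraries were held at 1 read. Kinetochore protein mis17 lay among the 10 largest decreases, with 1 read in each 24 h library, but at 0 h its reads came from B alone, with 60 reads against 1 in A, and the authors' deposited table lists its p as 1.

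The splicing list had 1 called gene of 90, prp3, and the ribosome biogenesis list 2 of 83, nop9 and esf1, against 10 of all 5113 coding genes. The region over prp3, a splicing factor of the U4/U6 particle, lay within the 5718 bp annotated for that gene. It also overlapped uso1, which encodes the tether of vesicles between endoplasmic reticulum and Golgi, and it counts for both genes. The region held 1 read in each 24 h library, against 41 in A and 29 in B at 0 h. nop9, an RNA-binding protein of small ribosomal subunit assembly in budding yeast, had 1 read in each 24 h library, against 63 in A and 13 in B at 0 h. esf1, a pre-rRNA processing protein, had 2 reads in D and 1 each in C and E at 24 h, against 29 in A and 17 in B at 0 h. The FDR in the authors' deposited table was 0.0142 for prp3, 0.0153 for nop9 and 0.0481 for esf1. A and B lay above the 24 h libraries in each of these genes too.

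Against 10 of all 5113 coding genes, the heterochromatin and RNA-interference list had 1 called gene of 49. This was swi2, which encodes a recombination mediator used in mating-type switching, and it had 1 read in each 24 h library, against 29 in A and 18 in B at 0 h, with an FDR of 0.0270 in the authors' deposited table. chp1, the chromodomain subunit of the RNA-interference complex RITS, had 0.771 normalised reads at 24 h and 13.6 at 0 h. All of the 0 h reads of chp1 above the minimum were 69 reads in B, and the authors' deposited table lists its p as 1. lid2, a histone demethylase of the JmjC family outside this list, was among the 10 largest decreases, with 1 read in each 24 h library, against 75 reads in B and 1 in A at 0 h. These decreases of chp1 and lid2 thus rested on 1 library.

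The other called regions lay over grp1, which encodes a GRIP domain protein of the Golgi type, and over the transporter gene SPAC6F6.04C. grp1 had 1 read in each 24 h library, against 30 in A and 67 in B at 0 h, and SPAC6F6.04C had 2 reads in C and 1 each in D and E at 24 h, against 22 in A and 24 in B at 0 h. The FDR in the authors' deposited table was 0.00806 for grp1 and 0.0406 for SPAC6F6.04C. The carboxypeptidase gene ecm14 was among the 10 largest decreases with 1 read in each 24 h library, against 4 in A and 49 in B at 0 h, and the authors' deposited table lists its p as 1. Of the 9 called regions that were resolved, all 9 had reads in both A and B, and each stayed lower at 24 h whichever of the 5 lettered libraries was left out. With 24 h levels under 2.31 normalised reads set to it, the weakest change of each under these omissions ranged from -2.60 in mph1 to -0.58 in rec8. These omissions are a description and no support for the calls, which rest on the same values. At the 24 h minimum, where 7 of the 10 called regions stood, reads in both A and B largely fix such an outcome.

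**Figure D2:**
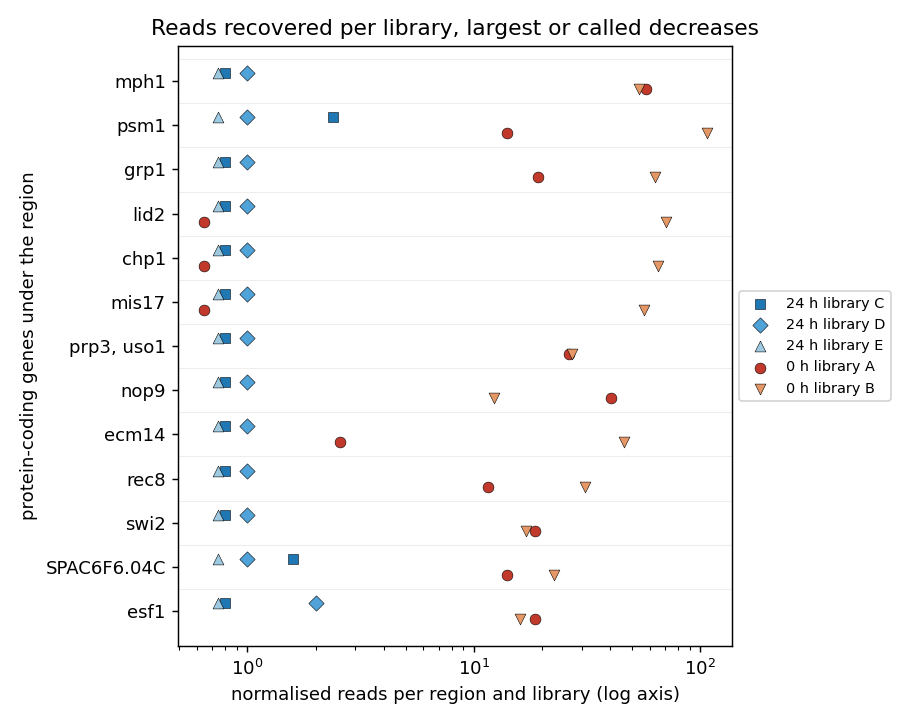
Normalised reads per library (log axis) in the 13 resolved regions that were called at a deposited FDR of 0.05 or had 1 of the 10 largest decreases, with 24 h libraries C, D and E above 0 h libraries A and B in each row. Libraries at 1 read form the column on the left, where library A also lies for lid2, chp1 and mis17.

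The largest decrease stood apart from the others in level and place. The region at chrII:2338887-2339918 had 0.771 normalised reads at 24 h and 172 at 0 h, at least 74.1-fold lower at 24 h, with an FDR of 6.49e-06 in the authors' deposited table. Every 24 h library was at 1 read. At 0 h its mean had no solution in whole reads of A and B, so its make-up by library is not known. It overlapped the end of the noncoding RNA gene SPNCRNA.5604 and the start of SPNCRNA.1506, and it ended 495 bp before coa6. The 5 copies of GGTTA seen in the sequence above lay within its central bases. No other window of the same length around a region centre held 5 on a strand: GGTTA, searched on both strands, stood at least 3 times on a strand in 4 of 240 windows of the regions lower at 24 h and in 7 of 1918 windows of other regions up to 10 kb. GGTTA occurred at all in 34.2% of the windows of the lower regions and in 35.8% of the others.

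**Figure D3:**
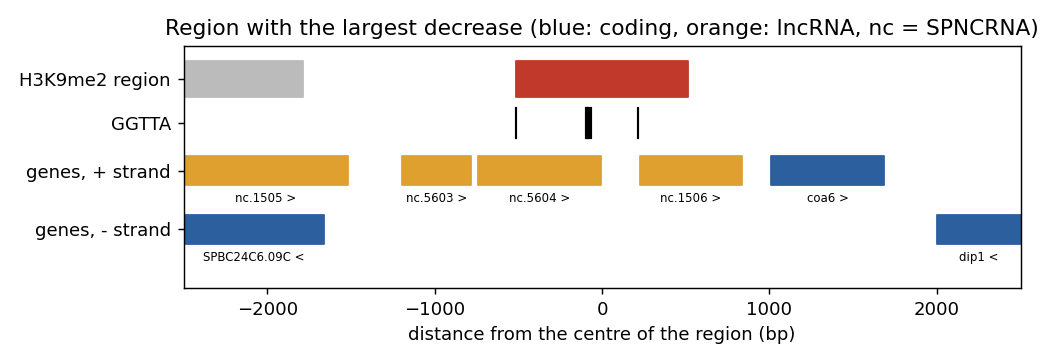
Map of the region with the largest decrease, in bp from its centre, with the neighbouring region in grey, positions of GGTTA on either strand as black ticks and annotated genes by strand. The cluster of 5 ticks, drawn close together, lies within the 3′ end of SPNCRNA.5604.

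Apart from that region, the highest 0 h levels lay at the mating-type locus and towards chromosome ends. The region over the silent mating-type cassette mat3, chrII:2128883-2136875, with mat3-Mi and mat3-Mc, had 1078 normalised reads at 24 h and 4649 at 0 h, a change of -2.11 with an FDR of 0.101 in the authors' deposited table. SPBPB21E7.09, an L-asparaginase gene towards an end of chromosome II, had 154 at 24 h and 581 at 0 h. SPAC977.14C, an aldo-keto reductase gene towards an end of chromosome I, had 74.7 at 24 h and 169 at 0 h. Much of these sequences is found more than once in the genome: 64.7% of 31-base runs of the mat3 region, 77.4% of those under SPBPB21E7.09 and 59.1% of those under SPAC977.14C. Reads from such copies cannot be assigned to a place with certainty. Both regions of SPBPJ4664.02 and the meiotic driver gene wtf23 also held at least 50% repeated runs, whereas 236 of the 242 regions held none. The first region of SPBPJ4664.02 had 65.8 normalised reads at 24 h and 77.7 at 0 h, and the second had 41.5 at 24 h and 73.4 at 0 h. In the second, 275 reads in E made up the 24 h level, with 1 read each in C and D, against 294 in A and 187 in B at 0 h.

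Among regions without repeated runs over coding genes, gcn1, cta4, kcs1 and mip1 had the highest 0 h levels. gcn1, which regulates translation through the kinase Gcn2, had 58.3 normalised reads at 24 h and 89.0 at 0 h over 7507 bp. By library it held 361 reads in C and 1 each in D and E at 24 h, against 329 in A and 246 in B at 0 h. C was thus the highest of all libraries in this gene, although the group mean was lower at 24 h. cta4, a calcium-transporting ATPase of the endoplasmic reticulum, had 128 reads in C and 1 each in D and E at 24 h, against 176 in A and 200 in B at 0 h. kcs1, an inositol polyphosphate kinase, had 46.0 normalised reads at 24 h and 56.8 at 0 h, and mip1, the raptor subunit of TOR complexes, had 44.8 at 24 h and 56.2 at 0 h. C was the highest library in kcs1 and mip1 too. It held 187 normalised reads in kcs1, against 172 in A and 109 in B, and 162 in mip1, against 149 in A and 130 in B. Of the widest regions, that over mor2, a morphogenesis gene, had 34.5 normalised reads at 24 h and 52.4 at 0 h. The ubiquitin ligase gene ubr1 had 0.771 at 24 h and 6.23 at 0 h, all from 30 reads in B. Per kb, big1 had the highest 0 h level of these, with 5.61 normalised reads per kb at 24 h and 40.0 at 0 h.

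Across the 238 resolved regions the 24 h signal came mainly from library C. The sum over the regions was 10469 normalised reads in C, 1046 in D and 862 in E at 24 h, against 9005 in A and 11825 in B at 0 h. C was above 1 read in 194 of the regions, D in 55 and E in 19, against 200 for A and 218 for B. C alone had reads at 24 h in 135. A and B both lay above every 24 h library in 53 of the 238, only 1 of them did in 123 and neither did in 62. C exceeded both A and B in 61. A and B lay within 2-fold of each other in 104 regions and more than 5-fold apart in 76. At 0 h both A and B had reads in 180 of 238 regions, or 75.6%, against 376 of 785, or 47.9%, of the other regions up to 10 kb above the 0 h minimum. The selection on a high 0 h mean, which is made of the reads in A and B, favours such a difference, so nothing is read from it.

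The number of regions and the median change moved with single libraries. Without A the median change of the 238 regions was -0.33, and without B it was 0.085. Regions such as that of chp1, left without B at 1 read in every library of both groups, have a change of 0.087. That value reflects only the scaling of the libraries, so no direction is read from the median of 0.085. Without C it was -3.55, without D -0.66 and without E -0.57. Of the 238, 98 stayed lower by at least 0.1 without B, 137 without A, 182 without E, 195 without D and all 238 without C. Chosen afresh without C, 718 regions would be lower, against 103 without B and 146 without A. Lower by at least 0.1 under each of these omissions were 50 regions, or 21.0%, and 42, or 17.6%, with 24 h levels under 2.31 normalised reads set to it. All 50 had reads in both A and B, which the criterion requires. A region with reads in 1 of them falls to the lowest 0 h level when that library is left out. What sets the libraries apart was not tested.

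**Figure D4:**
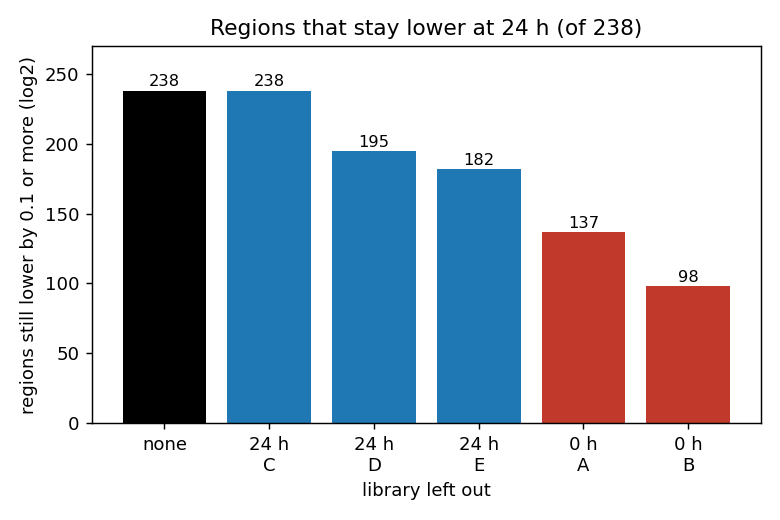
Number of the 238 resolved regions that stayed lower at 24 h by at least 0.1 on the log2 scale after 1 library was left out, 24 h libraries in blue and 0 h libraries in red. Deposited values were used without a floor, and the number was 98 without library B and 238 without library C.

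At 24 h 38 regions stood at the minimum. None can do so at 0 h, because the selection requires a 0 h level above the 24 h level. Their 0 h levels ranged from 0.958 to 172 normalised reads with a median of 5.93, and 4 of them were at or under 2.31, for which no fold is given. Of the 37 resolved, 12 had reads in both A and B and 25 in only 1 of them. The authors' deposited table lists 19 of the 38 with a p of 1. Among all lower regions with a listed p of 1, 42 of 55 had reads in a single 0 h library, against 16 of the 183 resolved ones with a p below 1. The other 204 regions had medians of 9.79 normalised reads at 24 h and 17.6 at 0 h, a median change of -0.70.

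In the genome the regions lay inside protein-coding genes. The region fell within the body of the coding gene it overlapped most in 231 of 242 cases, or 95.5%, against 716 of 785, or 91.2%, of the other regions above the 0 h minimum and 76.3% of all 1938 other regions up to 10 kb. Only 7 covered the end of that gene, 2 its start and 1 the whole gene, and the region with the largest decrease had none. The 3′ ends of coding genes on both strands lay under 8 regions, or 3.31%, against 5.86% of the other regions above the 0 h minimum and 16.7% of all others. Whether such ends face each other was not checked, and the 8 include the mat3 region, which covers a whole gene. Among the 8 were vps29 and moa1, with 0.771 normalised reads at 24 h and 6.79 at 0 h, where only A lay above the minimum, with 48 reads. The centre of the region lay at a median of 0.53 of the gene length from the 5′ end, with quartiles of 0.48 and 0.58, against 0.52 for the other regions above the 0 h minimum. Host genes had a median length of 2745 bp, against 2603 bp in that set, and the regions a median GC content of 39.6%, against 41.0%. Against the other regions with signal at 0 h, no test was made, because levels chose both sets.

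**Figure D5:**
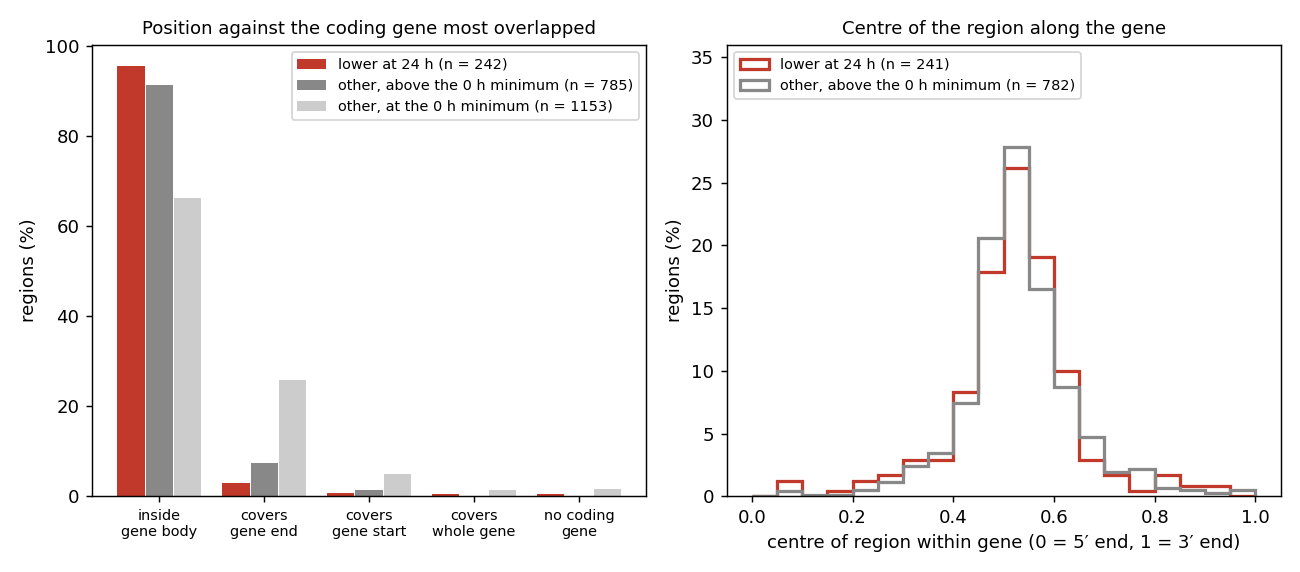
Share of regions (%) by their position against the coding gene most overlapped (left) and distribution of region centres along that gene from the 5′ to the 3′ end (right), for regions lower at 24 h and for other regions up to 10 kb. Of the lower regions 95.5% lie inside the gene body, and both distributions centre close to the middle of the gene.

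The regions were spread over the 3 chromosomes. Chromosome I held 120, chromosome II 94 and chromosome III 28, or 21.5, 20.7 and 11.4 per Mb. Other regions up to 10 kb numbered 150 per Mb on chromosome I, 153 on chromosome II and 164 on chromosome III. Within 10 kb of a wide region lay 2, or 0.826%, against 1.53% of the other regions above the 0 h minimum and 1.44% of all others. They were the mat3 region and that over spo14, which encodes an exchange factor needed for spore formation. The wide region beside spo14 had 55.1 normalised reads at 24 h and stood at the minimum, 0.770, at 0 h. spo14 had 1 read in each 24 h library, against 28 in A and 1 in B at 0 h. Regions that the authors' deposited table calls higher at 24 h lay within 2 kb of 26 of the lower regions, or 10.7%, against 14.2% of other regions. Pairs of lower regions within 2 kb numbered 13.

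Under the regions lay 260 of 5113 annotated coding genes, or 5.09%, whereas 54.8% lay under any region of the table. Genes with meiotic and mating names (mug, rec, spo, mat, ste and others) had 11 of 177 under the lower regions, 1 of them called, and 11, or 6.21%, under regions that the authors' deposited table calls higher at 24 h, against 10.5% of all coding genes. Over all 81 regions up to 10 kb under these genes the median change was 2.23, against 2.46 over all 2180 such regions. mug174, a coilin that is needed for efficient meiosis, had 0.771 normalised reads at 24 h and 5.29 at 0 h, and moa1, the meikin of meiosis I kinetochores, shared its region with vps29. The 0 h reads above the minimum came from B alone in mug174, with 25 reads, and from A alone in the region of moa1, with 48. spo6, a regulator of meiosis II, had 13.7 at 24 h and 25.9 at 0 h. The cohesion, checkpoint and segregation list had 4 of 55, namely mph1, psm1, rec8 and the condensin gene cnd1, and a median change of 2.22 over its 28 regions. Beside the 3 called genes above, cnd1 had 9.71 normalised reads at 24 h and 16.4 at 0 h. By library it held 57 reads in C at 24 h, against 1 in A and 84 in B at 0 h.

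The heterochromatin and RNA-interference list had 6 of 49 genes under the lower regions, or 12.2%, with swi2 as the only called one, and a median change of 2.17 over its 28 regions. Beside swi2 and chp1 these were fft3, a chromatin remodeller, red1, the Mmi1 partner named above, mit1, the remodeller of the SHREC complex, and hrr1, an RNA helicase of the RNA-interference machinery. mit1 had 1.73 normalised reads at 24 h and 6.23 at 0 h, the latter with 30 reads in B and 1 in A. red1 had 14.2 at 24 h and 19.7 at 0 h, and fft3 had 15.0 at 24 h and 19.9 at 0 h. In both of these genes C alone lay above both 0 h libraries A and B. It held 67.9 normalised reads in red1, against 51.3 in A and 45.2 in B, and 71.9 in fft3, against 51.3 in A and 46.2 in B. Splicing genes had 7 of 90, with prp3 as the only called one and prp43, a helicase that takes spliceosomes apart, at 16.2 normalised reads at 24 h and 34.0 at 0 h. Ribosome biogenesis genes had 5 of 83, nop9 and esf1 among them, with median changes of 2.04 over 51 regions of the splicing list and 1.76 over 55 of this one. Membrane transport and vesicle traffic genes had 14 of 132, or 10.6%, with uso1 as the only called one and a median change of 2.49 over 93 regions. apl5, a subunit of the vacuolar AP-3 adaptor, had 0.771 normalised reads at 24 h and 5.67 at 0 h, where only B lay above the minimum, with 27 reads. Ribosomal protein genes had 0 of 141 under the lower regions, while 46, or 32.6%, lay under regions called higher in the authors' deposited table, against 10.5% of all coding genes, and their 93 regions had a median change of 4.05. No tRNA, rRNA, snRNA or snoRNA gene, long terminal repeat or Tf2 element lay under a lower region. Under any region of the table lay 44 of 171 tRNA, 11 of 47 rRNA, 8 of 66 snoRNA and 0 of 6 snRNA genes, 19 of 238 long terminal repeats and 6 of 13 Tf2 elements. Long noncoding RNA genes lay under 177 of the 242 regions, or 73.1%, against 75.6% of the other regions.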

How the data were processed

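Chromatin of fission yeast was immunoprecipitated and sequenced. The submitters' processing notes name Bowtie2 2.2.7, MACS2 2.1, DiffBind 1.16.3, DESeq2 and the build ASM294v2, without roles. Deposited values are log2 mean normalised reads of each group, with p-value and FDR, per the file headers; whether input was subtracted is not given in the sources used here. No depth per library is given, so low values are the least certain, and values carry no SD or n. Recomputing the Benjamini-Hochberg adjustment over the 1385 regions with p below 1 gave the deposited FDR.

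Lower regions were those with a 24 h minus 0 h log2 change of -0.1 or less and at most 10000 bp. The regions and gene lists were chosen with earlier results of these data known. Named are genes under called regions, the 10 largest decreases, the 10 highest 0 h levels, the 5 widest regions, list members and neighbours of the limit; other genes were chosen after their values were seen. Genes came from RefSeq on ASM294v3, whose chromosome lengths equalled the last region ends; starts count from 1.

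Each group mean was written as whole reads per library, within a relative tolerance of 3e-14 and up to 600 normalised reads, assuming 5 libraries per group. Reads above 1 were allowed only in C, D and E at 24 h and in A and B at 0 h. This gave 1 solution for 2175 regions at 24 h and for 2177 at 0 h, of 2192. Of values shifted on purpose, 0 of 1900 at 24 h and 0 of 1015 at 0 h had one. limma 3.58.1 (R 4.3.3) was fitted to log2 of these values as an alternative. Its check on simulated data held no library at 1 read, so it does not show how limma behaves on these values. No test of the lower regions was planned, and limma over all regions was planned only as an alternative to the deposited calls. Floors cover counting error only.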

Additional observations from a re-analysis of the deposited data

Results flagged for a closer look

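The libraries of the 10 called and the 10 largest decreases, 14 regions in all, were compared within each group of 5. The values spanned at least 1 normalised read in 15 groups, none of them from the region with the largest decrease. Libraries held at 1 read entered each group at a constant value. In 7 groups 1 library stood far from the other 4. The value given is the gap to the nearest other library as a share of the whole range, against a critical value of 0.71. Chance flags about 1 in 20 groups of independent values, a rate that does not apply here: the regions were chosen on the same values, and a group with reads in 1 library and the others at the minimum gives a share near its upper limit by construction. The shares are therefore a description. At 24 h library C stood apart in psm1 (0.803) and library D in esf1 (0.895). At 0 h library B stood apart in psm1 (0.875), lid2 (0.998), chp1 (0.998), mis17 (0.998) and ecm14 (0.96). What sets these libraries apart was not tested.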

How the results depend on the processing

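No paired analysis was possible because the columns are group means with no replicate numbers. Of 36 alternatives 16 left the value unchanged by the limits used (1.5 times for counts). The number of lower regions, 242, was 102 at a decrease of at least 1, 143 with both groups scaled to the same total and 846 with the tested regions scaled to the same median; before scaling, 24 h differed from 0 h by -0.54 in the total and by 1.72 in the median region, on the log2 scale. Leaving out single libraries gave 103 to 718 regions; this, the count of 236 regions with few repeats and the values with low 24 h levels set to 2.31 normalised reads (236 regions, median -0.75) were added after seeing the data. The number called, 10, was 3 at an FDR of 0.01 and 19 at an unadjusted p under 0.05. limma on the recovered values called 0, with 0 at an unadjusted p under 0.05, which is no test of regions selected on the same means. With most 0 h libraries held at 1 read in that fit, its smallest unadjusted p for a lower region was 0.147. The median change, -0.84, was -0.30 with the same total, -2.56 with the same median and -0.62 with at least 10 normalised reads at 0 h. It ran from -3.55 to 0.085 when libraries were left out. Its sign was positive only without library B (0.085), a value near that of regions with 1 read in every library, so no direction is read from it. The 260 coding genes became 156 when at least 50% of the gene had to be covered. The 2 regions within 10 kb of a wide region became 6 at 20 kb and 11 at 50 kb. In the 38 regions at the 24 h minimum H3K9me2 was not detectable in these values, and whether depth sets that minimum was not tested.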
